A study of Drosophila melanogaster with 2 samples.

Results

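The summits described here are the strongest points of CG7101-GFP peaks on the X chromosome of Drosophila melanogaster that lay more than 500 bp from every annotated transcription start site (TSS). They numbered 599 of the 6486 summits in the authors' list of reproducible peaks, made with an irreproducible discovery rate (IDR) step, and are called distal X summits. The X chromosome held 1349 summits of that list, of which the other 750 lay at promoters, within 500 bp of a TSS. The autosomes held 1811 summits chosen by the same distance, and these served for comparison. The data are from chromatin immunoprecipitation and sequencing (ChIP-seq) of whole adult female flies whose age is unknown. The flies came from 1 transgenic line that stably expresses CG7101 with green fluorescent protein (GFP) at its C-terminus, and the precipitation used an antibody against GFP on sonicated chromatin. There was 1 group, with 2 biological replicates. The sources used here do not name the promoter that drives the transgene, and a whole fly mixes all tissues, so a summit cannot be assigned to a cell type. The gene CG7101 itself lies on X, from 18830591 to 18832123 in the dm6 build used throughout.

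In Drosophila females the X chromosome is present in the same number of copies as each autosome, whereas males have a single X. Dosage compensation in flies acts in males, where the MSL complex and the noncoding RNAs roX1 and roX2 raise transcription of X-linked genes. Distal sequence includes enhancers, most of them in introns or between genes, and also start sites that are not annotated. Most transcription factors recognise short DNA words, and the summit of a ChIP-seq peak marks where precipitated fragments pile up highest.

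The sequences at the summits were rich in A and T, and many carried the word CACTGT, more often to 1 side of the summit. The 4 stretches below show the sequence at the strongest 2 distal X summits, in introns of CG32772 and of Tlk, and at the strongest 2 intergenic ones, nearest the TSSs of CG17896 and of PGRP-SA, a peptidoglycan recognition protein of the immune response. Each runs 5′ to 3′ from 50 bases before to 50 bases after the summit, which is base 51, and capitals mark CACTGT read on the other strand, as ACAGTG. In the stretch of CG17896 the word lies 5′ of the summit on the strand that spells CACTGT, which is the rarer side.
CG32772, chrX:4910331-4910431, plus strand: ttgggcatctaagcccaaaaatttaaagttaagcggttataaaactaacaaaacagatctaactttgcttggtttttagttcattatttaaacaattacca
Tlk, chrX:3742165-3742265, plus strand: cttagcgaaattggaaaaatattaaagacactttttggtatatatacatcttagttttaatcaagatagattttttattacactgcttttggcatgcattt
CG17896, chrX:493969-494069, plus strand: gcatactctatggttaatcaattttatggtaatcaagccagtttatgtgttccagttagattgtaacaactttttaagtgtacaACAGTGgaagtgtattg
PGRP-SA, chrX:11560429-11560529, plus strand: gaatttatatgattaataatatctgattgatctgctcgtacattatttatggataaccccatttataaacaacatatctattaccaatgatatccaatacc

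The next 6 stretches are the strongest intronic or intergenic distal X summits, all of them intronic, that had CACTGT 25 to 150 bp ahead, meaning 3′ of the summit on the strand that spells the word. Each covers 161 bases of that strand, with the summit at base 31 and the word in capitals. Summits were taken only where the printed stretch held the word and was free of annotated exons and transposable elements, and the latter holds for every sequence shown.
CHES-1-like, chrX:7706853-7707013, minus strand: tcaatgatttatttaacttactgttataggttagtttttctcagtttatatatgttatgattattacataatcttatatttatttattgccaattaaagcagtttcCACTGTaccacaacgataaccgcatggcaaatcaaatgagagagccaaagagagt
norpA, chrX:4324958-4325118, plus strand: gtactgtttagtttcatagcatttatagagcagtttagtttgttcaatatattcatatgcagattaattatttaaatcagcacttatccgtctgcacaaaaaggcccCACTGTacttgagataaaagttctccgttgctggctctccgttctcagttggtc
Marf, chrX:6366471-6366631, plus strand: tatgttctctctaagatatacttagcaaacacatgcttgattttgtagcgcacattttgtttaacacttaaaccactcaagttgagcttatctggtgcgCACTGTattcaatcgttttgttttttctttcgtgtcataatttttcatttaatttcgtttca
NFAT, chrX:13640488-13640648, plus strand: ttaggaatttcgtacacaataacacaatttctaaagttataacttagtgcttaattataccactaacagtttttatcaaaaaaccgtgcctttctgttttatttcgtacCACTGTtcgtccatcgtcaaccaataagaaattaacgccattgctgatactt
Zw, chrX:19668576-19668736, plus strand: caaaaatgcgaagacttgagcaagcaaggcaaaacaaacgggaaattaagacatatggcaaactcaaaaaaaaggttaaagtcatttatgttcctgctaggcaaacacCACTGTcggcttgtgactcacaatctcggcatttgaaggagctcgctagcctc
mnb, chrX:17880417-17880577, plus strand: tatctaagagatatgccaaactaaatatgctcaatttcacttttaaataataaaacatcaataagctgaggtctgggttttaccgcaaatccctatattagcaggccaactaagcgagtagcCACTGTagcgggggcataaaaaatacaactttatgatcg
The word began 76 bp from the summit in CHES-1-like, 77 bp in norpA, 69 bp in Marf, 79 bp in NFAT, 78 bp in Zw and 92 bp in mnb. The 4 summits shown first had a GC content of 28.71, 25.74, 32.67 and 26.73% over the bases printed, below the 42.35% of the X windows described further on.

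Distal summits were denser on X than on every autosomal arm. X carried 29.11 distal summits per Mb of sequence more than 500 bp from a TSS (95% exact Poisson interval 26.83 to 31.54, 599 summits in 20.57 Mb). The autosomes together carried 19.03 per Mb (18.16 to 19.93, 1811 summits in 95.16 Mb). Arm 2L had 20.73 per Mb, 2R 17.4, 3L 19.25 and 3R 19.38, and the small chromosome 4 had 7.479 from 9 summits. The ratio of X to autosomes was 1.53 (conditional exact interval 1.393 to 1.679). At promoters the same ratio was 1.153 (1.064 to 1.248), from 252.7 summits per Mb of promoter sequence on X and 219.2 on the autosomes. These intervals and all others given here cover counting error over summits or genes only. With 1 group there was no comparison between groups to test, and peaks are not replicates, so the arms were compared by values and intervals without p-values. The read coverage of each arm in the control and in the replicates was not analysed here, and its part in the difference was not tested.

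**Figure D1:**
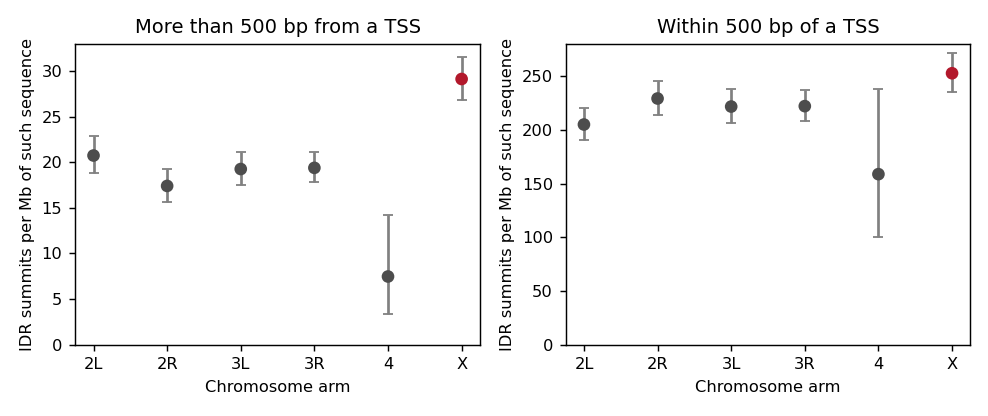
Summits of the IDR list per Mb of sequence on each chromosome arm, more than 500 bp from a TSS on the left and within 500 bp of one on the right. Points are densities and bars are 95% exact Poisson intervals, which cover counting error only. On the left X stands at 29.11 per Mb and 2L, the next arm, at 20.73, while on the right X stands at 252.7 and 2R at 229.2.

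Most distal X summits were intronic. Introns held 485 of the 599 distal X summits (80.97%, Clopper-Pearson interval 77.59 to 84.04), and 1346 of the 1811 autosomal ones (74.32%, 72.25 to 76.32). Introns make up 49.6% of the distal sequence of X and 44.79% of that of the autosomes. Per Mb of intron there were 47.53 distal summits on X and 31.58 on the autosomes, a ratio of 1.505 (1.354 to 1.671). Per Mb of intergenic sequence there were 12.05 and 10.69, a ratio of 1.127 whose interval of 0.8488 to 1.477 includes 1 and overlaps that of introns. Intergenic sequence held 64 of the distal X summits (10.68%), against 18.39% of the autosomal ones. The remaining distal X summits lay in 3' UTRs (20), 5' UTRs (16), noncoding exons (10) and coding exons (4). Coding exons thus held 0.6678% of the summits in 16.16% of the distal X sequence. Annotated transposable elements held 0 of the 599 summits. A limit of 3 counts allows a share of up to 0.5008%, and the exact 95% interval reaches 0.6139%. These elements cover 6.137% of the distal X sequence. The treatment of reads from repeated sequence is not stated, so absence of summits there cannot be told apart from missing reads.

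Distal X summits were densest near the 500 bp limit but also lay far past it. On X their density was 65.47 per Mb from 500 to 1000 bp and 5.608 beyond 10000 bp. On the autosomes it was 44.99 and 5.535. The nearest lay 503 bp from a TSS, the quartiles were 1010, 2026 and 4088 bp, and the farthest lay 43508 bp away. The autosomal median was 1771 bp. Within 2 kb of a TSS lay 295 distal X summits (49.25%, 45.17 to 53.33), against 54.45% on the autosomes (52.12 to 56.76). The distal sequence within 2 kb was 27.19% of that of X and 28.14% of that of the autosomes. The ratio of X to autosomal density was 1.455 (1.203 to 1.751) from 500 to 1000 bp and 1.424 (1.176 to 1.717) from 1000 to 2000 bp. It was 1.895 (1.599 to 2.239) from 2000 to 5000 bp, where X had 202 summits, and 1.481 (1.116 to 1.946) from 5000 to 10000 bp. Beyond 10000 bp it was 1.013 (0.6602 to 1.508), with 30 summits on X. At the 500 bp limit itself, the nearest summits inside the set lay 503 bp from a TSS, with signals of 948.1 (position 21065091) and 1793 (position 12752370). The nearest left out lay 499 bp away with a signal of 225.2 (position 12938018) and 496 bp away with a signal of 289.1.

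Peak signal, the strength written by the authors, is compared here only within a list, since its scale is not stated. Over the distal X summits it spanned 142.1 to 5195, and its median was 247.4, with quartiles of 177.5 and 427.9. The autosomal distal summits had a median of 226.4 and quartiles of 174.7 and 349.5. The 90th percentile was 797.6 on X and 594.1 on the autosomes, so the distributions parted more in their upper range than at the median. Arm medians were 228.2 on 2L, 232.2 on 2R, 212.3 on 3L, 231.6 on 3R and 229.2 on chromosome 4, all below that of X. Promoter summits of X had a median of 248 and those of the autosomes 257.6. Among distal X summits the median was 253.1 in introns and 212.6 between genes.

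The share of distal summits found on X was higher among the strongest. X held 37 of the 100 strongest distal summits of the list (37%, Clopper-Pearson interval 27.56 to 47.24), 108 of the strongest 300 (36%, 30.56 to 41.72) and 277 of the strongest 1000 (27.7%, 24.95 to 30.59). It held 24.85% (23.14 to 26.63) of all 2410, while 17.78% of the distal sequence is on X. Each replicate list gave like shares. Among the strongest 100 distal summits 36% in replicate 1 and 35% in replicate 2 were on X, and among the strongest 300 the shares were 35.33% and 34%. At promoters X held 18% of the strongest 100, 19% of the strongest 300 and 18.4% of all, with 16.36% of the promoter sequence. The distal peaks of the pooled list were also taken by signal, past its strongest 2410. Membership of the IDR list was not checked there. Of these, X held 20.7% (18.23 to 23.35) of the next 1000, 20.05% of the 2000 after those and 19.36% (18.67 to 20.06) of the remaining 12698.

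**Figure D2:**
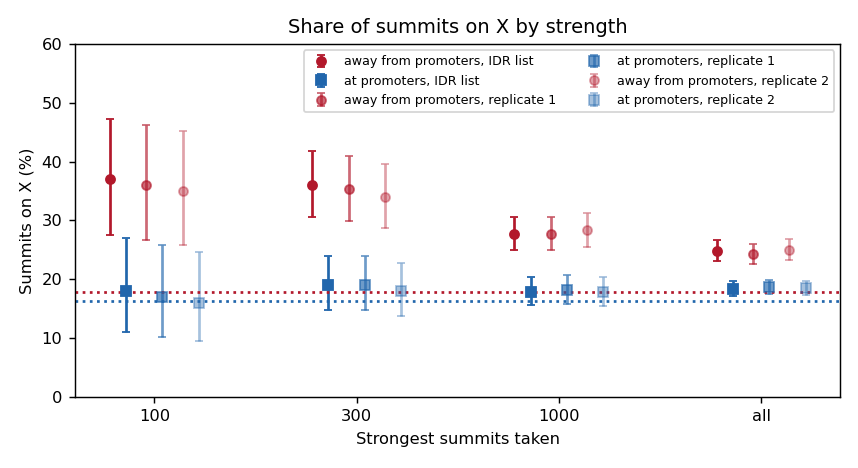
Share of summits that lay on X, in percent, among the strongest 100, 300 and 1000 summits and among all, for summits away from promoters (circles) and at promoters (squares), in the IDR list and in the 6486 strongest peaks of each replicate. Bars are 95% Clopper-Pearson intervals and dotted lines are the share of the corresponding sequence on X, 17.78% away from promoters and 16.36% at promoters. Away from promoters the share falls from 37% to 24.85% in the IDR list, while at promoters it stays between 17.9 and 19%.

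The strongest distal X summits ranked high in both replicates, from which the IDR list itself was made. The strongest, in an intron of CG32772 at 4910381, had a signal of 5195 in the IDR list and ranked 6 in replicate 1 and 7 in replicate 2, with signals of 2886 and 2306 in those lists. The next, in an intron of Tlk at 3742215, had a signal of 4913 and ranked 9 and 8, with signals of 2676 and 2252. Tlk encodes the tousled-like kinase, which acts in chromatin assembly. The summit at 7706983 in an intron of CHES-1-like, a forkhead transcription factor, had a signal of 3963 and ranked 17 and 13. The summit at 12751328 in an exon of lncRNA:Vinr had a signal of 3719 and ranked 13 and 39, and its signals in the replicate lists were 2268 and 1289. The intronic summit of norpA, the phospholipase C of phototransduction, at 4324988 had a signal of 3440 and ranked 23 in both. These 5 thus stood within the first 39 peaks of each replicate.

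Of the 25 strongest distal X summits 21 were intronic, 3 lay in noncoding exons and 1, in stas at 17625078 with a signal of 2577, lay in a 3' UTR. They included further intronic summits in Tlk (2190) and CHES-1-like (1848 and 1332), and summits in lncRNA:CR44619 (1793 and 1344). Enzymes and signalling proteins among the hosts were Zw, the glucose-6-phosphate dehydrogenase of the pentose phosphate pathway (1663), mnb, a DYRK family kinase (1654), and the Raf kinase of the MAP kinase cascade (1471). Regulators of transcription among them were NFAT (1832), the corepressor Smr (1448) and bbx, an HMG box protein (1410). Marf (1842) is a mitofusin, a protein that fuses mitochondria. The others lay in CG3726 (2173), CG9921 (1889), CG42258 (1682), Tob (1640), Snx27 (1528), Evi5 (1377) and LPCAT (1353). All 25 stood among the first 266 peaks of replicate 1 and the first 316 of replicate 2.

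Over all 599, peaks of both replicates overlapped 596 by at least 1 bp and a peak of 1 replicate overlapped the other 3. The IDR list was made from these replicates, so neither the overlap nor the ranks given here and above are separate evidence of reproducibility. Each summit took the rank of the strongest replicate peak that overlapped its interval, so a weaker summit could take the rank of a stronger neighbour. The Smr summit at 12735884, of rank 4515 in the IDR list, thus took ranks 183 and 190. The median rank among the 30000 peaks of each replicate was 3179 in replicate 1 and 2931 in replicate 2. Of the distal X summits, 481 (80.3%) had a peak within the strongest 6486 of both replicates, against 79.02% of the autosomal distal summits. The 599 summits lay in 590 intervals, since some intervals held more than 1 summit, with a median interval width of 317 bp (104 to 1437), against 304 bp on the autosomes.

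**Figure D3:**
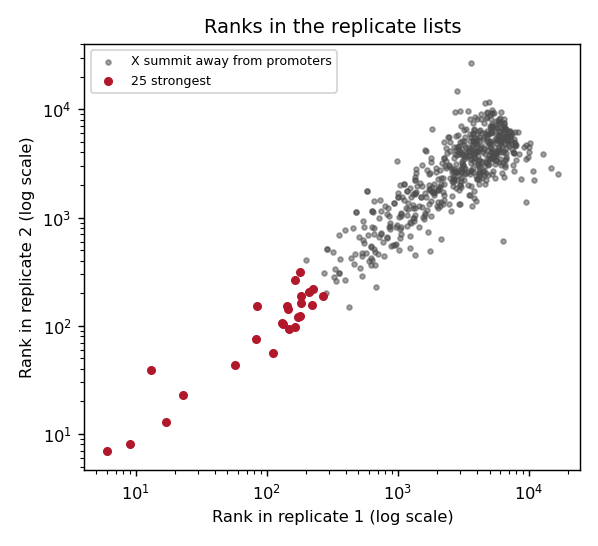
Rank of each distal X summit in the peak list of replicate 1 (x axis, log scale) and of replicate 2 (y axis, log scale). The rank is that of the strongest replicate peak overlapping the summit's interval, and rank 1 is the strongest peak. The 25 strongest, in red, lie at ranks up to 266 and 316, and the other points spread around the medians of 3179 and 2931.

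Genes that held distal X summits were long. Of 2196 protein-coding genes on X, 260 (11.8%) held at least 1 distal summit in the gene body, against 865 of 11749 (7.36%) on the autosomes. The X genes with a distal summit had a median length of 13156 bp and all X genes one of 2521 bp, so length moved with the count. The autosomal genes were alike, with medians of 13527 and 2102 bp. Among genes of at least 10 kb, 157 of 378 on X (41.5%) held one, against 535 of 1599 on the autosomes (33.5%). Of the 260 X genes 172 (66.15%) also had a promoter summit, against 31.4% of the X genes without a distal summit. On the autosomes these shares were 67.75% and 30.09%, so this was not particular to X. At least 2 distal summits were found in 104 of the 2196 X genes and at least 5 in 27, against 320 and 46 of the 11749 autosomal genes. In all, 517 of the 599 summits (86.31%) lay in a protein-coding gene.

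The 10 X genes with most distal summits held 96 of them (16.03%). Tlk (FBgn0283657, 69.76 kb) held 13 with signals from 143.8 to 4913. Mnt (FBgn0023215, 29.87 kb), the antagonist of Myc, also held 13, from 142.3 to 872.5. The corepressor gene Smr (58.42 kb) held 12, from 149.8 to 1448. CHES-1-like (27.05 kb) held 11, from 267 to 3963, and its median of 719.1 was the highest among the 10 genes, above 477 in Hr4. In the other 8 the median ran from 203.7 in Smr to 372.6 in Mnt. Raf and CG1677 held 10 each. Hr4, a nuclear receptor of the ecdysone response, gce, a receptor of juvenile hormone, and mamo, a BTB zinc finger protein, held 7 each. Evi5 held 6, as did Tis11, which promotes mRNA decay, and the histone deacetylase gene HDAC4, and Evi5 was taken as the tenth for its higher top signal. The highest signal was 560.3 in mamo, 745.4 in gce and 872.5 or more in the rest, so in each gene 1 or a few summits stood well above the median. Smr and Hr4 had no promoter summit in the list, and the other 8 had one.

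**Figure D4:**
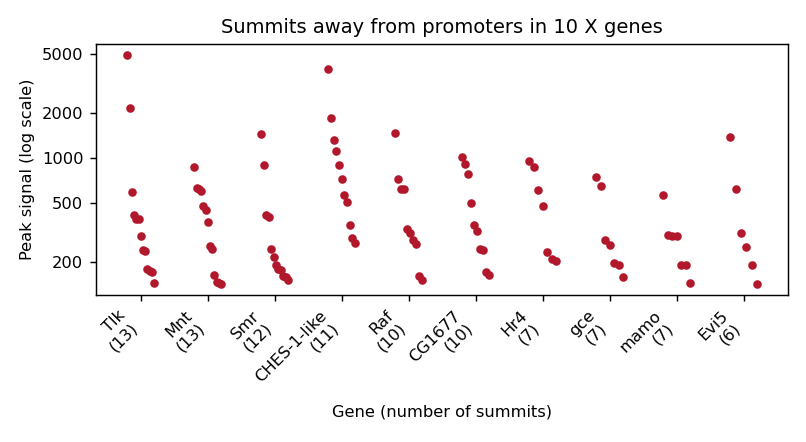
Signal (log scale) of each distal summit in the 10 X genes that held most of them, ordered by number, with the number in parentheses. Each point is 1 summit. In Tlk and CHES-1-like the strongest points reach 4913 and 3963, and all 11 points of CHES-1-like lie at or above 267.

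Summits also stood close together. Another distal X summit lay within 2 kb of 258 (43.07%), against 33.41% among the autosomal distal summits, and within 10 kb of 76.63%, against 63.78%. The median gap between neighbours was 7996 bp on X and 15846 bp on the autosomes. A higher density shortens the gaps by itself, and the part of clustering beyond it was not tested. The largest run with gaps of at most 2 kb had 9 summits, from 2294885 to 2304108, at the 5′ end of Raf. Runs of 7 in Smr (12734031 to 12739337) and 6 in CHES-1-like (7700426 to 7706983) followed. Some summits of a run were not separate peaks. In Smr those at 12735008, 12735680 and 12735884 shared an interval. In Raf those at 2296319 and 2296518 overlapped the same peak of each replicate. The largest run on the autosomes had 5. Counted once per run, the density ratio of X to autosomes was 1.381.

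Along X, the number of distal summits per 1 Mb bin was between 0 and 56, and the median bin held 27. The bin from 13 to 14 Mb held 56, and those from 3 to 4 Mb, which includes Tlk and Mnt, and from 11 to 12 Mb held 50 each. The bin from 22 to 23 Mb, at the centromeric end of the assembly, held 2, and the bin from 23 Mb held 0. Over full bins the median density was 30.99 per Mb on X and 19.3 on the autosomes, and 6 of 23 X bins exceeded 40 per Mb, against 9 of 109 autosomal bins. Without the 3 densest bins of X the density ratio was 1.296 (1.166 to 1.439).

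In the gene lists, distal summits lay mostly in the long members. Of 23 X-linked genes for neural excitability and synapses 8 held a distal summit, all 8 of them among the 20 of at least 10 kb. The share of 8 in 20 stood near the 41.5% of all long X genes. The strongest were in norpA (3 summits, up to 3440), elav (1 summit, 866.6), an RNA-binding protein of neurons, and dnc (6 summits, up to 424), a cAMP phosphodiesterase. The summit in elav also lay inside arg and lncRNA:enrr, and its nearest TSS, 578 bp away, was that of lncRNA:enrr. Of 30 transcription factor genes 9 held one, all among 19 long genes, led by Smr (1448), CrebB (1020), a cAMP-responsive factor, and Hr4 (949.4). The share of 9 in 19 was likewise near the 41.5% of all long X genes. Of 21 signalling genes 8 held one, led by Tlk (4913), Raf (1471) and baz (416.2), a cell polarity protein. Those 8 were among only 9 long genes, a larger share than the 41.5% of long X genes, in a list whose members were picked with Tlk already known as strong. Of 8 clock and learning genes 7 held one, led by norpA (3440), CrebB (1020) and Bx (817), an LMO protein. That list had a median gene length of 40690 bp, and 6 of its 7 long genes held a summit, against 41.5% of all long X genes. Most of its genes with a summit also stand in the lists above, so its count is no separate result. Its members too were chosen with earlier results of these data known. The 14 X-linked genes for cytosolic ribosomal proteins held 0 distal summits, and their median length was 1603 bp. Among all X genes under 10 kb 5.666% held one, so a count of 0 in 14 is near the background. All 14 had a promoter summit, as did 31.78% of the X genes under 10 kb without a distal summit.

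Among sex determination and dosage genes on X, Sxl, the master switch of female development, was the 1 of 9 protein-coding members with a distal summit (7095729, intron, signal 776.4), a share near the 11.8% of all X protein-coding genes. It ranked 624 in replicate 1 and 546 in replicate 2. The noncoding genes lncRNA:roX1 and lncRNA:roX2 had 0 summits inside, in the IDR list and in the pooled list alike. The nearest distal X summit lay 76042 bp from roX1 and 18586 bp from roX2. CG7101 had 0 summits inside as well, and the nearest distal X summit lay 2509 bp from it with a signal of 229.7.

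Words searched within 100 bp of the summit on both strands gave shares on X whose intervals held those of the autosomal distal summits, with AAAAAAAA as the exception among those named here. TATCGATA, the DNA replication-related element, occurred at 4 distal X summits (0.6678%, 0.1822 to 1.701), against 0.7178% at autosomal distal summits and 0.4675% of X windows. These windows tile the X sequence away from promoters without overlap and match the stretch searched, 100 bp to either side of a centre, in length. GAGAGAGA, the GAGA word, occurred at 19 (3.172%, 1.92 to 4.909), against 2.816% on the autosomes and 1.449% of X windows, but 4.508% of windows 500 bp to either side. CACACACA occurred at 43 (7.179%, 5.244 to 9.548), against 6.35%, 5.691% and 7.93% in the same order. AAAAAAAA occurred at 20.2% of distal X summits and 13.91% of autosomal ones, and it was likewise commoner in X windows (15.7%) than in autosomal windows (9.54%) and stood at 21.54% in the flanks of the X summits. GGTCACACT, known as Motif 1, occurred at 0 of the 599, for which a limit of 3 counts allows up to 0.5008% and the exact interval up to 0.6139%, against 0.1333% of X windows and 0.5843% of the flanks. The shorter words CGATA and GAGAG occurred at 24.54% and 22.7% of distal X summits, against 24.96% and 26.01% on the autosomes. ATATATAT stood at 5.008%, the E-box words CACGTG and CAGCTG at 1.503% and 7.346%, against 4.804, 2.098 and 6.571% on the autosomes. The strongest intronic or intergenic distal X summit with each of the first 3 words within 50 bp of the summit is shown with 50 bases to either side, the summit at base 51 and the word in capitals. That of Raf lies 581 bp from its TSS outside the gene, with a signal of 220.2, and those of Stt3A and Mnt are intronic, with signals of 720.2 and 872.5.
Stt3A, chrX:21053231-21053331, plus strand: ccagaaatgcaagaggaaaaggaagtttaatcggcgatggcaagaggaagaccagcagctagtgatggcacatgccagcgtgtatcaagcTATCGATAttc
Mnt, chrX:3672669-3672769, plus strand: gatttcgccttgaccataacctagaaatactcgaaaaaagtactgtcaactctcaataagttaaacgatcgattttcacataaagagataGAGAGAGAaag
Raf, chrX:2294835-2294935, plus strand: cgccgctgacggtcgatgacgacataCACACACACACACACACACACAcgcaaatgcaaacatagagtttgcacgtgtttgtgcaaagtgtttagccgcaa

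Ranked by their share at distal X summits over that in X distal windows, 1313 words of 6 bases occurred at 30 or more distal X summits. ACAGTG, which is CACTGT on the other strand, came first. It lay within 100 bp of 129 distal X summits (21.54%, Clopper-Pearson interval 18.31 to 25.05), against 7.594% of X windows, 2.836 times as often. On the autosomes it lay at 15.02% (13.4 to 16.75) of distal summits and in 7.314% of windows. ACTGTA, which can share 5 bases with it, followed at 16.69%, and GTGCAC came next at 9.182%. AATATT, at 31.72% against 15.32% of windows, was the first in the ranking made of A and T alone. Windows differ from summits in base composition, with GC contents of 42.35% and 36.26%, and the part of that difference in the ranking was not tested.

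CACTGT was commoner on 1 side of the summit than on the other. On the strand that spells it, the word lay 25 to 150 bp ahead of the summit, as in the sequences of CHES-1-like, norpA and Marf above, at 134 of the 599 distal X summits (22.37%, 19.09 to 25.92). It lay as far behind at 52 (8.681%, 6.551 to 11.23). In X distal windows the shares were 4.921% ahead and 5.04% behind, with no such side, so the share behind distal X summits was also above that of windows. At 18 summits the word lay both ahead and behind. The word was taken because it led the ranking at these same summits, and the window of 25 to 150 bp was chosen after its positions had been seen. The median distance ahead was 84 bp, with quartiles of 66 and 106.5 bp. From 50 to 100 bp ahead of the 599 summits there were 103 words, and 24 over the same distance behind. In the words ahead, C preceded CACTGT in 59.06% of 171 cases, A or G followed it in 44.44% and 37.43%, and C came next in 49.12%.

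The share with the word ahead was higher at distal X summits than in the other groups, though its interval overlapped that of X promoter summits. The word stood ahead of 14.41% (12.83 to 16.11) of autosomal distal summits, 16.93% (14.32 to 19.81) of X promoter summits and 12.24% (11.14 to 13.4) of autosomal promoter summits. In each of these the share behind was lower, at 6.129, 7.6 and 7.246%. Among distal X summits the word stood ahead of 48 of the strongest 150 (32%, 24.63 to 40.1) and 22 of the weakest 150 (14.67%, 9.426 to 21.36). In the groups between, of 150 and 149 summits from weaker to stronger, the shares ahead were 22.67% and 20.13%. The share behind was also higher in the strongest 150 (12.67%) than in the weakest 150 (7.333%), with 6% and 8.725% between. Distal X summits with the word ahead had a median signal of 298.2 and those without it 239. The medians were 268.6 and 222.1 at autosomal distal summits, 283.4 and 238.1 at X promoters, and 324.4 and 250.7 at autosomal promoters. So this was not particular to distal X summits. Among the 150 distal X summits next above the weakest 150 they were 206 and 207.8. The word stood ahead of 23.71% of intronic and 10.94% (4.512 to 21.25) of intergenic distal X summits, the latter 7 of 64. It stood behind 8.454% of the intronic and 9.375% (3.519 to 19.3) of the intergenic ones, the latter 6 of 64. Thus the placement to 1 side was seen in introns, while the intergenic counts ahead and behind were close. Distal summits with the word ahead were 2.375 times as dense on X as on the autosomes (1.914 to 2.936), and those without it 1.388 times (1.248 to 1.54). Since the word was picked at the distal X summits, its shares and densities on X against the other groups are a description that this choice favours, and give no independent measure of a difference.

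A and T were concentrated at the summit itself. Over the 599 distal X summits the A+T share was 66.74% in the 25 bp from the summit on and 66.5% in the 25 bp before it. It fell to 59.32% at 100 to 125 bp before and 58.43% at 100 to 125 bp after the summit. The GC content over 100 bp to either side was 36.26% at distal X summits, 36.46% at autosomal distal summits and 39% at X promoter summits. Windows 500 bp to either side had 40.32% on X.

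**Figure D5:**
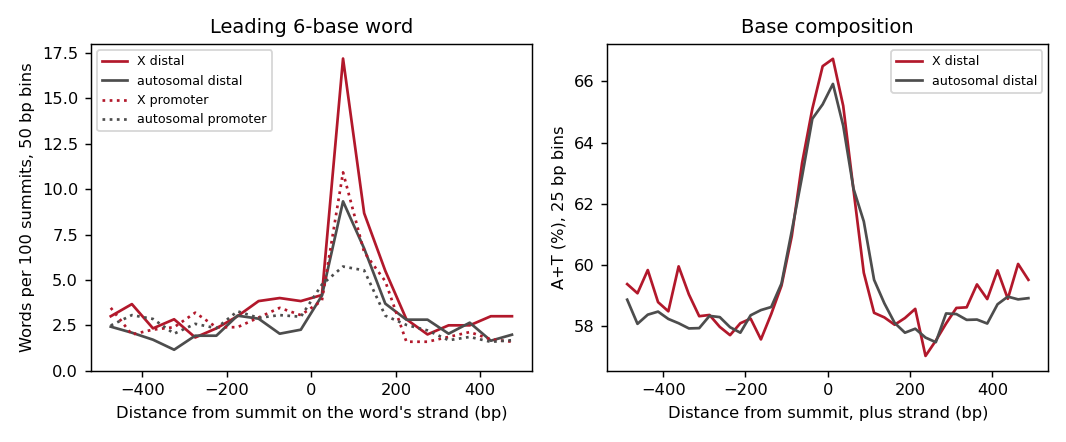
On the left, number of the leading 6-base word (CACTGT) per 100 summits in 50 bp bins by distance from the summit, counted along the strand that spells the word, for distal and promoter summits of X and the autosomes. On the right, A+T content in percent in 25 bp bins around distal summits on the plus strand. The word peaks at 17.2 per 100 distal X summits from 50 to 100 bp ahead, against 9.332 on the autosomes, and A+T peaks at 66.74% on X.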

How the data were processed

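Peaks were called per replicate, for the pooled replicates and, after an IDR step, as a list of 6486, in dm6 coordinates, per the labels and list names. For the caller, the use of the control and the IDR cut-off, the sources used here give nothing. Signal is the peak strength deposited by the authors, with no stated scale. Read counts were not analysed, so depth is unknown. TSSs came from Ensembl release 115 without transposable elements, and bases from the Release 6 genome. Positions count from 1. Overlapping genes each count a summit. Named were the 25 strongest members, the 10 X genes with most members, 3 members of each list, CG7101, roX1 and roX2. The members and lists were chosen with earlier results of these data known. Intervals are 95% and exact. The steps were tested on simulated data with scipy 1.17.1, pandas 2.3.3, numpy 2.4.6 and matplotlib 3.10.9 under Python 3.11.15. Alternatives used each replicate alone, other peak thresholds, distances, windows and annotations.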

Additional observations from a re-analysis of the deposited data

How the results depend on the processing

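Of 83 alternatives 59 left a value within its limits, 24 moved it and 0 reversed it. The limits were the exact interval or, for the count of genes, a factor of 1.5 from the main count. The ratio of median signals had no exact interval and was held to 1.091 to 1.094, so small shifts counted as moved. No paired analysis was possible because the study has 1 group. The density ratio of X to autosomes, 1.53, was 1.75 in the 3243 strongest peaks, 1.174 in the whole pooled list and 1.381 with summits within 2 kb counted once, an alternative chosen after the data were seen. With either replicate left out it was 1.482 to 1.544. The ratio of median signals, 1.093, ran from 1.102 to 1.105 with either replicate left out, and was 1.14 among these 3243, 1.068 in the whole pooled list, 1.084 and 1.083 with distances of 250 and 1000 bp, and 1.111 with TSSs of protein-coding genes only. The intronic share was 71.92% in the whole pooled list and 77.41% with 250 bp. The share within 2 kb of a TSS was 42.67% in the whole pooled list, and 58.64% and 32.59% with 250 and 1000 bp, which follow from the limit itself. X genes with a distal summit numbered 165 among these 3243, 712 in the whole pooled list and 157 among genes of at least 10 kb, against 260 in the main count. They numbered 302 and 190 with 250 and 1000 bp. CACACACA stood at 2.98% among these 3243, and within 50 bp at 2.671%, with GAGAGAGA at 1.503%. Within 150 bp, a window added after the data were seen, they stood at 13.36% and 5.342%. CACTGT ahead stood at 11.24% in the whole pooled list. The cause of the other changes was not tested. With no read counts, what depth limits is unknown.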
